A study of Mus musculus with 3 samples.

Results

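The genes described here are 9 that act late in odorant detection or mark the mature olfactory sensory neuron: the cyclase Adcy3, the channel subunits Cnga2, Cnga4, Cngb1 and Ano2, the transporters Slc12a2 and Slc24a4, the membrane protein Stoml3, and Omp. They were chosen by name for their role, and each has 1 row among the 34617 gene rows of the expression table. The study asked what the DNA base 5-hydroxymethylcytosine does in these neurons, which sit in the main olfactory epithelium of the nose. Transcripts were read in 2 RNA libraries of sorted cells from mice aged 4 weeks, after depletion of ribosomal RNA. The mOSN library was made from OMP-ires-EGFP positive cells of strain C57BL/6J, which carry a green fluorescent reporter at the Omp gene. The O/Tet3 library came from OMP-tTA / tetO-Tet3-GFP mice of strain Fvb, in which a transactivator driven by Omp switches on Tet3, an enzyme that oxidises 5-methylcytosine. Both groups thus carry an engineered allele under Omp control, while the labels do not give the copy number of either allele, the number of animals or the sorting gate for O/Tet3. The third sample, a 5-hydroxymethylcytosine pull-down of O/Tet3 DNA, is not analysed here.

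In the cilia of these neurons an odorant receptor activates a G protein, which switches on the adenylyl cyclase encoded by Adcy3. Cyclic AMP opens a channel built from the Cnga2, Cnga4 and Cngb1 subunits, and the calcium that enters opens the chloride channel Ano2, which amplifies the current. The cotransporter Slc12a2 loads the cell with the chloride that leaves through Ano2, and the exchanger Slc24a4 removes calcium so that the response can end. Stoml3 is a stomatin-family membrane protein of the same cilia, and Omp encodes the olfactory marker protein, a cytoplasmic protein of mature neurons that tempers the cyclic AMP response.

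Of the 9 genes, 8 stood lower in O/Tet3, and Slc12a2 did not. The exchanger Slc24a4 stood 8.07-fold lower, the main channel subunit Cnga2 6.28-fold and the chloride channel Ano2 6.0-fold. Omp had the smallest difference of the 8 genes, at 2.14-fold. Levels are given as values obtained from the authors' deposited log2 columns. These values look like FPKM, which corrects for transcript length and library size, but the file does not name the unit. In each pair of values mOSN comes first and O/Tet3 second. A log2 ratio is O/Tet3 over mOSN on log2(value + 1), a fold is the ratio of the values themselves, and a gene was called lower or higher when its log2 ratio reached 1 in size, which is a 2-fold difference of value + 1. Comparison was limited to rows that reached a value of 1 in mOSN or O/Tet3, and all 9 genes did so in both. Each group has 1 library, so there is no replicate check, test or error for any difference, and genotype, reporter, strain and library cannot be told apart. In bulk RNA, fewer cells that express a gene and less of its RNA per cell cannot be told apart either.

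The share of all 12943 compared rows called lower was 12.0%, against 8 of the 9 genes. Since the genes are abundant, the share was also taken over the 2278 compared rows whose mean log2 level lay in the range of the 9 genes, where 9.48% were lower, and over the 593 rows with an mOSN value at least that of Slc24a4, the lowest of the 9 there, where 28.3% were. The median log2 ratio of the 9 genes was −2.23, beside 0.21 over all compared rows. Rows higher in O/Tet3 made up 16.5% of those compared, and 0 of the 9 genes were among them. After the general shift of 0.21 was subtracted, the called rows split into 1464 higher and 1953 lower in place of 2135 and 1552, and the number of lower genes stayed at 8 of 9. Subtracting the shift lowers every ratio, so the number of lower genes could not fall. The genes had been picked for a pathway already seen to be lower in these libraries, so this count is a description and not independent evidence.

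**Figure D1:**
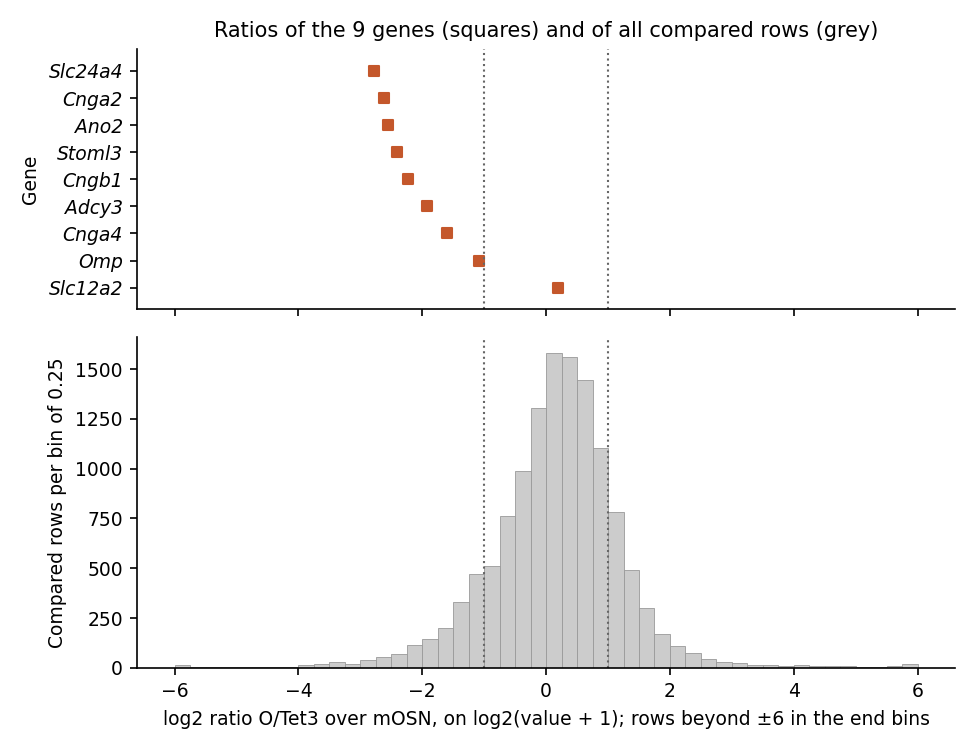
Top: log2 ratio of O/Tet3 over mOSN for each of the 9 genes (squares). Bottom: number of the 12943 compared rows in each bin of 0.25 on the same axis, with rows beyond 6 in size placed in the end bins; dotted lines mark a ratio of 1 in size. Slc12a2, at 0.20, lies in the centre of all rows, and the other genes lie between −1.09 and −2.78.

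Facts on the libraries that bear on these values are few. Tet3 itself stood at 3.72 in mOSN against 145 in O/Tet3, which goes with the labels. A handful of rows dominated the summed values, with 90.05% (mOSN) and 96.9% (O/Tet3) of the sum held by the top 6. This is a share of summed values, not of reads. Read totals are not in the file, but among odorant receptor genes, which are of similar length, the lowest cluster of non-zero values lay near 0.0264 in mOSN (17 genes) and 0.0493 in O/Tet3 (128 genes). If these clusters are single reads, a given value rests on about 1.87-fold fewer reads in O/Tet3. The bounds of the clusters were set after the data were seen and do not overlap. The O/Tet3 cluster therefore had to lie higher, and the fold is no independent measure of depth. The 9 genes stood far above both clusters, the lowest being Slc24a4 in O/Tet3 at 4.87.

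Adcy3, the cyclase that makes the second messenger, stood at 115 in mOSN against 29.7 in O/Tet3. It was thus 3.88-fold lower in O/Tet3 (log2 ratio −1.92), and moved from rank 129 to rank 1125 among all rows. It was the one adenylyl cyclase of the table at an appreciable level. The other 9 listed cyclase genes were all under a value of 1 in both libraries, with the highest at 0.696 for Adcy7 in mOSN and 0.596 for Adcy9 in O/Tet3. No paralog therefore stood at a level near that of Adcy3 in the O/Tet3 library. In the GRCm38 annotation the next protein-coding gene, Cenpo, a centromere protein gene, overlaps Adcy3. Cenpo was at 31.04 and 11.9 (log2 ratio −1.31), and reads of overlapping genes could not be separated here.

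The cyclic nucleotide-gated channel was lower in all its subunits, but not to the same extent. Cnga2, the principal subunit of the channel, was at 238 in mOSN against 37.9 in O/Tet3 (log2 ratio −2.62). Cnga4, a modulatory subunit that sharpens sensitivity and adaptation, was at 110 and 35.7, a 3.08-fold difference (log2 ratio −1.60). Cngb1, whose short form is the olfactory subunit and whose long form serves rod photoreceptors, was at 77.7 and 15.7, which is 4.94-fold lower (log2 ratio −2.23). The table gives 1 row for Cngb1, so the forms were not separated. The summed value of the 3 subunit genes was 426 in mOSN against 89.3 in O/Tet3.

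The balance among the subunit transcripts differed between the libraries. Cnga2 made up 55.95% of the summed value of the 3 genes in mOSN and 42.5% in O/Tet3. Cnga4 made up 25.8% and 39.9%, and Cngb1 18.3% and 17.6%. The ratio of Cnga2 to Cnga4 was 2.17 in mOSN against 1.06 in O/Tet3, so that the pair stood nearly level in the latter. Such ratios are taken within a library and do not depend on how a library was scaled, but levels of different genes are comparable only if the values are per length, as in FPKM, and their error is unknown with 1 library per group. Of the other family members, Cnga1 and Cngb3 were near 0 and Cnga3 was low. Cnga1 was listed at 0 in mOSN, with 0.104 in O/Tet3, and Cngb3 at 0.0046 in mOSN against 0 in O/Tet3. Cnga3, the cone photoreceptor subunit that is also found in a small class of olfactory neurons using guanylyl cyclase D, was at 0.0564 and 1.42 (log2 ratio 1.20), the opposite direction to the 3 olfactory subunits. Gucy2d, which encodes that cyclase, was at 0.0852 and 0.0123.

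Sequences just before the annotated starts of these genes were examined after 8 of the 9 were seen to differ in the same direction. RefSeq windows on build GRCm38.p6 were found for 7 of the 9 genes (Adcy3, Ano2, Cnga2, Cnga4, Cngb1, Slc24a4 and Stoml3), 10 windows in all, since Ano2 has 3 annotated starts and Adcy3 has 2. In the 250 bases before each start, the letters CCCNNGGG, the core of the site bound by the olfactory transcription factors of the Ebf family, were found in 4 of the 7 genes, while 13.4% of all 27025 genes in that table hold them in a window of that length. Because it reads the same on both strands, this motif has no direction. Counted by window, it was in 4 of the 10, against 11.8% of all 32851 windows. No window was found for Omp or for Slc12a2, the gene that was not lower, so the 7 genes searched were all lower in O/Tet3. The search therefore cannot relate the motif to the direction of a difference. The shares are over all genes of that table, and genes expressed in these neurons were not taken apart. Cngb1 has 1 window, and whether its start serves the short olfactory form was not examined. The windows with a match are shown for their last 150 bases, 5′ to 3′ on the gene's strand and ending at the base before the start, with the match in capitals.
Cnga2, chrX:71991699-71991848, plus strand: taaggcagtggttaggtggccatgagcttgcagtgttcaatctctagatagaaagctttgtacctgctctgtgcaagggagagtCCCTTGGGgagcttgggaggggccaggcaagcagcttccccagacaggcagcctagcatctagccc
Cngb1, chr8:95306586-95306735, minus strand: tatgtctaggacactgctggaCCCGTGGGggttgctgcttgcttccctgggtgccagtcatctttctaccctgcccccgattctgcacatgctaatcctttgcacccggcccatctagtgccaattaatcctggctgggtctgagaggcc
Ano2, chr6:125711038-125711187, plus strand: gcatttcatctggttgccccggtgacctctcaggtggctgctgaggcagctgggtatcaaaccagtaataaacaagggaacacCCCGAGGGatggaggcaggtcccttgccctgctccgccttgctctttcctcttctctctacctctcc
Slc24a4, chr12:102128577-102128726, plus strand: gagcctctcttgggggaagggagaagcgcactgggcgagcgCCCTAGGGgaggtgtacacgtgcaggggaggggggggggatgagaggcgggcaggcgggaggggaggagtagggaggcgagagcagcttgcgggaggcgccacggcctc

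The match began 66 bases before the start in Cnga2, 67 in Ano2, 109 in Slc24a4 and 129 in Cngb1, and in Ano2 it lay before 1 of the 3 starts. The longer form with a T before and an A after these letters, which contains the core, was in 0 of the 7 genes and in 0.914% of all. Homeodomain-type letters were searched on both strands too. TAATTA was in 0 of the 7 and in 5.65% of all genes, TAATTG in 1 of the 7 (Cngb1) and 8.30% of all, and TAATCA in 1 of the 7 (Ano2, before another of its starts) and 8.33% of all. With 7 genes these shares are descriptions, a match in the letters is not a bound site, and binding was not measured here.

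Ano2, the calcium-activated chloride channel, differed nearly as much as Cnga2. Its value was 213 in mOSN against 35.5 in O/Tet3 (log2 ratio −2.55), and the ratio of Cnga2 to Ano2 within a library was 1.12 in mOSN against 1.07 in O/Tet3. Of the 9 other anoctamins listed, 5 were compared, and all had low levels. Ano3 was listed at 0 in mOSN against 3.04 in O/Tet3, and Ano9 was at 0.205 and 1.56 (log2 ratio 1.09). Thus 2 of the 5 were called higher and 0 lower, both calls at values near the floor. Over all compared rows, 16.5% were called higher and 12.0% lower. The widely expressed Ano6, a lipid scramblase, was at 1.77 and 3.21, Ano10 at 2.17 and 4.53, and Ano8 at 2.54 and 2.02. All were within the 2-fold bounds on value + 1, though Ano10 was 2.08-fold higher by the values themselves. Ano1, the chloride channel of secretory epithelia, was listed at 0 in both libraries.

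Slc12a2, the sodium-potassium-chloride cotransporter that keeps internal chloride high for Ano2, was the exception. It stood at 56.5 in mOSN against 64.9 in O/Tet3, a ratio of 1.15 (log2 ratio 0.20, but −0.01 after the general shift was subtracted and below 0 under both other scalings tried). Its rank was 360 in mOSN against 380 in O/Tet3. The ratio of Ano2 to Slc12a2 was therefore 3.78 in mOSN against 0.547 in O/Tet3, and Slc12a2 went from the eighth highest of the 9 genes to the third highest. The 5 compared genes among its 8 listed relatives were also within the 2-fold bounds on value + 1, all with ratios below 0 (median log2 ratio −0.43). They included the potassium-chloride cotransporters Slc12a7 at 22.5 and 18.7 and Slc12a5, which lowers chloride in many central neurons, at 1.39 and 0.523. Slc12a9 was at 2.48 and 1.58, and Slc12a8 at 1.86 and 0.802. By the values themselves, Slc12a5 was 2.66-fold and Slc12a8 2.32-fold lower in O/Tet3, both at low levels.

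Slc24a4, the potassium-dependent sodium-calcium exchanger, had the largest fold of the 9 genes. It was at 39.3 in mOSN against 4.87 in O/Tet3 (log2 ratio −2.78), and its rank went from 593 to 6418. Its close relative Slc24a2 was at 65.5 and 29.09 (log2 ratio −1.14), so the ratio of Slc24a4 to Slc24a2 was 0.60 in mOSN against 0.167 in O/Tet3. The 4 other relatives listed were under a value of 1 in both libraries. Slc8a1, a sodium-calcium exchanger of a separate family, was at 89.97 and 15.2 (log2 ratio −2.49). Atp2b1, the highest of the 4 plasma membrane calcium pump genes listed, was at 22.5 and 25.6 (log2 ratio 0.18, but −0.03 after the general shift was subtracted). The sodium pump subunit gene Atp1b1, whose product helps maintain the gradients used by these transporters, was at 199.6 and 113. Of the 6 compared genes of the 13 listed for ion gradients, 1 was called lower, 0 higher and 5 neither (median log2 ratio −0.32). The shares over all compared rows were 12.0% lower and 16.5% higher.

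**Figure D2:**
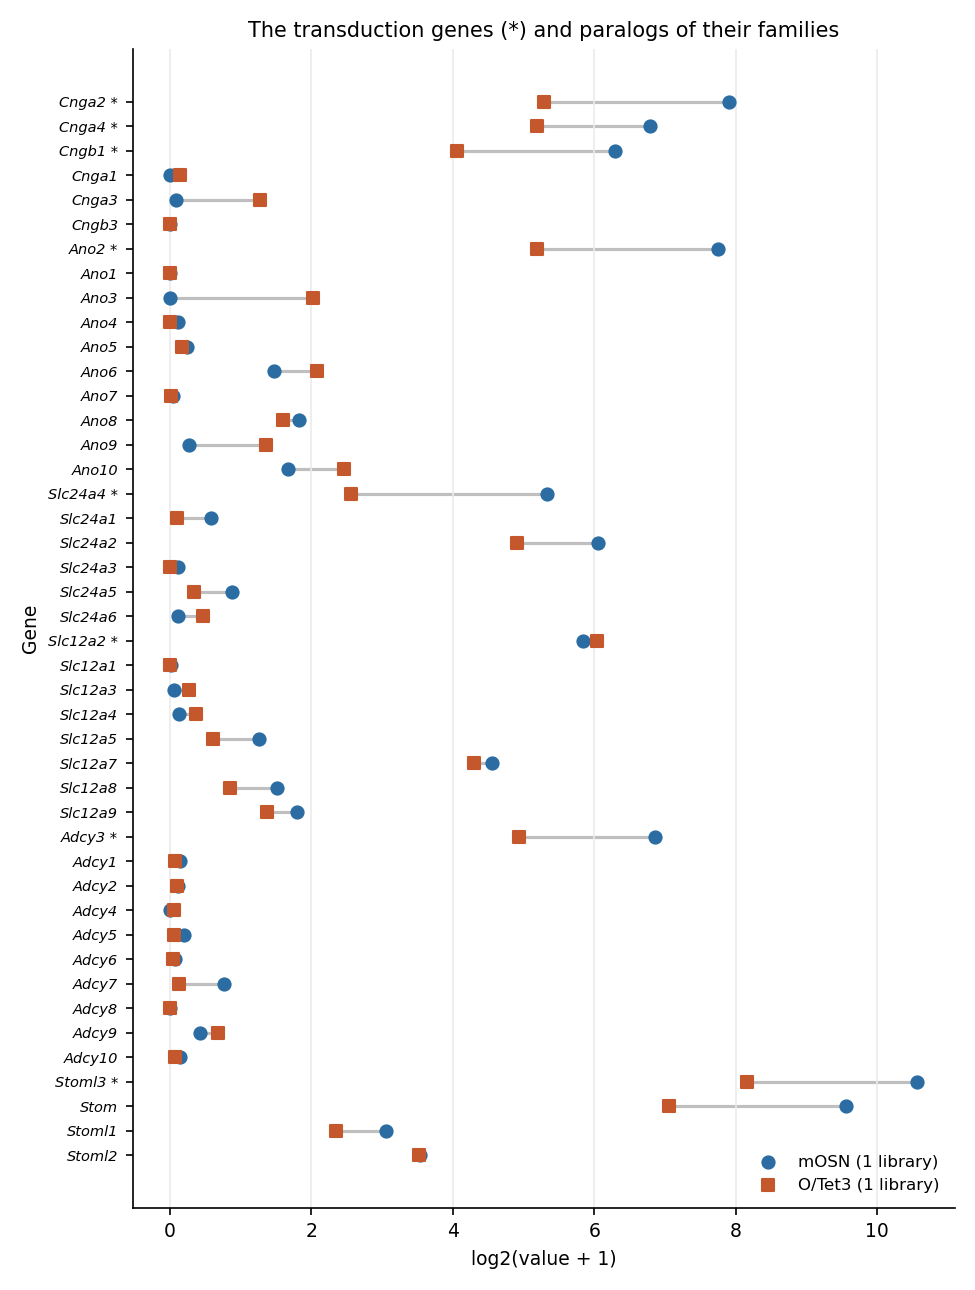
Levels on log2(value + 1) of the transduction genes (asterisks) and of listed members of their families in the mOSN (circles) and O/Tet3 (squares) libraries, 1 library each. The widest gaps toward lower O/Tet3 levels belong to the olfactory genes and Stom, Ano3 and Cnga3 have gaps in the other direction, the Slc12 cotransporters have close pairs, and most other relatives sit near 0.

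Stoml3 was the most abundant of the 9 genes in both libraries. Its value was 1518 in mOSN, at rank 18 of all rows, and 285 in O/Tet3, at rank 73 (5.33-fold lower, log2 ratio −2.41). Stom, which encodes stomatin, the founding member of the family, differed alike, at 751 and 132 (log2 ratio −2.50). The ratio of Stoml3 to Stom was 2.02 in mOSN against 2.15 in O/Tet3. Stoml1 was at 7.33 and 4.07 and the mitochondrial Stoml2 at 10.6 and 10.5, both within the 2-fold bounds.

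Omp, the marker gene used for the reporter and for the Tet3 driver, was at 298 in mOSN against 139 in O/Tet3 (log2 ratio −1.09), just past the bound. Its rank was 50 in mOSN against 143 in O/Tet3. Since both libraries carry an engineered Omp allele, its level may depend on those alleles, and their part in the difference was not tested. Omp lies within Capn5, a protease gene, in the GRCm38 annotation. Capn5 was at 2.94 and 4.97 (log2 ratio 0.60), a small fraction of the Omp value in both libraries.

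**Figure D3:**
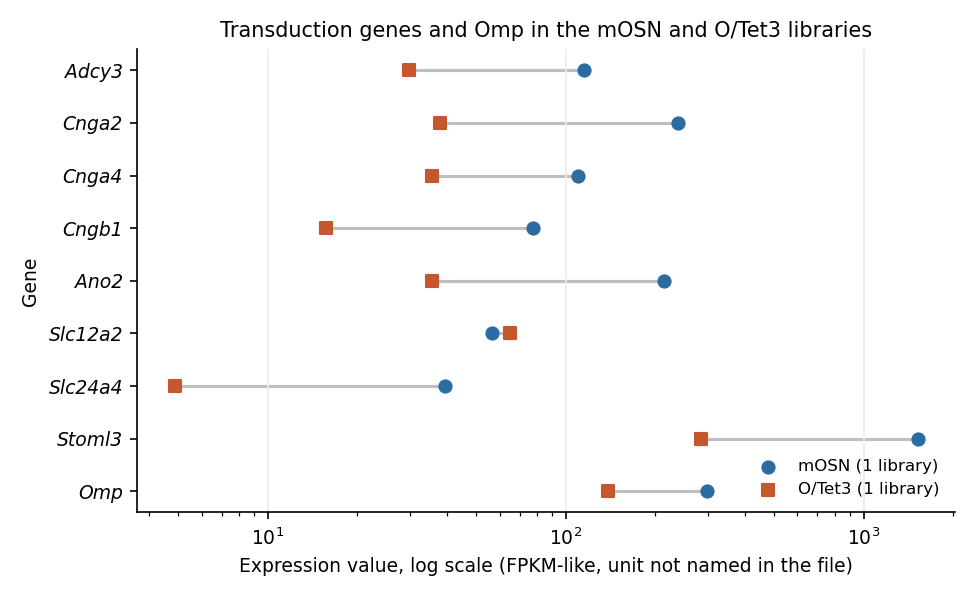
Value of each of the 9 genes (log axis) in the mOSN (circles) and O/Tet3 (squares) libraries, 1 library each, in the order of the transduction steps. All genes but Slc12a2 have the O/Tet3 point to the left, by 2.14-fold for Omp up to 8.07-fold for Slc24a4.

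The order of the 9 levels was similar but not identical in the libraries. In mOSN it ran from Stoml3 through Omp, Cnga2, Ano2, Adcy3, Cnga4, Cngb1 and Slc12a2 to Slc24a4. In O/Tet3 it ran from Stoml3 through Omp, Slc12a2, Cnga2, Cnga4, Ano2, Adcy3 and Cngb1 to Slc24a4. Without replicates no spread is known for these levels, so neighbours in the order with close values, such as Cnga4 at 35.7 and Ano2 at 35.5 in O/Tet3, cannot be ranked.

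Set against Omp in the same library, 7 of the genes were lower in O/Tet3. Omp had the smallest difference of the 8 lower genes, so the others had to remain lower, and only the sizes are informative. Cnga2 was at 0.80 of the Omp value in mOSN and 0.272 in O/Tet3. Ano2 was at 0.716 and 0.255, and Slc24a4 at 0.132 and 0.035, the lowest of all. Cngb1 was at 0.261 and 0.113, Adcy3 at 0.388 and 0.214, and Cnga4 at 0.369 and 0.256. Stoml3, above Omp in both, was at 5.10 and 2.04 times its value. Relative to Omp, the 7 genes were thus lower by between 1.44-fold for Cnga4 and 3.77-fold for Slc24a4. Slc12a2 was at 0.190 and 0.466 of Omp, 2.46-fold higher in O/Tet3. Most of that comes from Omp itself, which was 2.14-fold lower in O/Tet3, while the value of Slc12a2 had a ratio of 1.15. Omp is thus 1 of the lower genes and not a fixed reference.

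**Figure D4:**
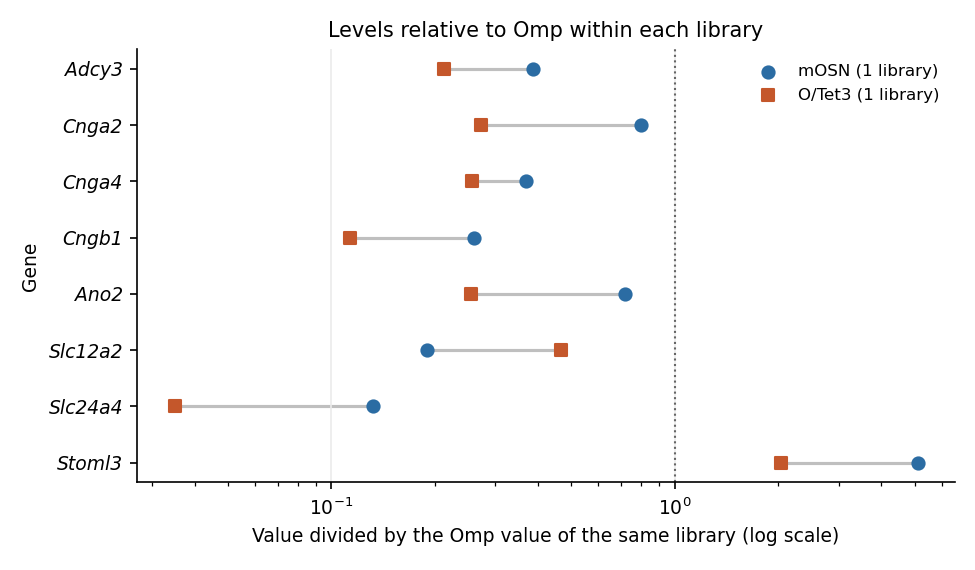
Value of each gene divided by the Omp value of the same library (log axis), in the mOSN (circles) and O/Tet3 (squares) libraries; the dotted line marks a level equal to Omp. Slc12a2 is the one gene whose O/Tet3 point lies to the right. Omp itself was 2.14-fold lower in O/Tet3.

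The rest of the odorant pathway was set beside the 9 genes as a list of 22, of which 21 had a row and 19 were compared. Of these, 12 were called lower, 1 higher and 6 neither, with a median log2 ratio of −1.51. Among all compared rows, 12.0% were lower and 16.5% higher. Upstream of the cyclase, Gnal, the olfactory G protein alpha subunit, was at 411 and 94.96, Gnb1 at 800.3 and 186, and Gng13 at 91.9 and 9.63. The exchange factor Ric8b, at 279 and 25.4, had the largest ratio in size of the list (log2 ratio −3.40), and it and Gng13 (−3.13) exceeded all 9 genes in this. The 1 higher gene was Gnas, the widely expressed relative of Gnal, at 0.95 and 3.49 (log2 ratio 1.20). Among genes that end the response, the phosphodiesterase Pde1c was at 131 and 31.9 and Pde4a at 31.2 and 9.37. The calmodulin genes, whose product binds the channel when calcium rises, did not share 1 pattern: Calm3 was at 319 and 92.8, and Calm2 at 983.3 and 983.1.

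**Figure D5:**
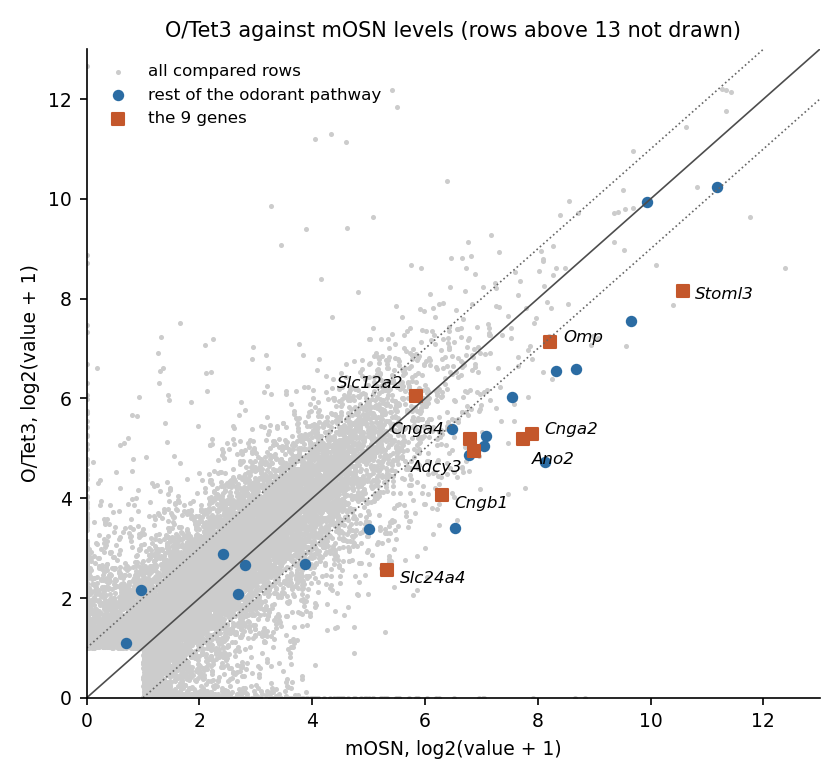
Level in O/Tet3 against level in mOSN, both as log2(value + 1), for all compared rows up to 13 (grey), the compared genes of the rest of the odorant pathway (circles) and the 9 genes (squares); the solid line marks equal levels and the dotted lines a ratio of 1 in size. Of the 9 genes, 8 lie below the lower dotted line together with 12 of the 19 other pathway genes, and Slc12a2 lies near the solid line.

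The rows most like Omp, Cnga2 and Adcy3 were found as the 3 nearest by Euclidean distance over the 2 log2 levels, leaving out small RNAs, receptors and clone-like names. For Cnga2 they were Clgn, a chaperone gene known from the testis, at 245 and 39.3 (distance 0.06), Ano2 (0.18), and Acsl6, an acyl-CoA synthetase gene, at 190.2 and 45.9 (0.42). For Adcy3 they were the receptor-transporting protein gene Rtp1 at 108 and 28.3 (0.11), Ell3 at 123 and 27.97 (0.12) and Pde1c (0.21). Those near Omp included Sgpl1, which encodes a sphingosine phosphate lyase, at 309 and 141 (0.06), and the RNA-binding protein gene Msi2 at 292 and 152 (0.13). With 2 libraries, likeness says only that both levels are close.

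Genes next to the 9 in the genome mostly had low or similar levels. Of the 18 flanking protein-coding positions in the GRCm38 gene order, 17 had a row and 10 were compared. One, Cenpo beside Adcy3, was called lower, and 1, the neurotrophin gene Ntf3 beside Ano2, at 1.89 and 5.40, was called higher. Beside Cnga2, Prrg3 was at 2.17 and 1.5. Beside Stoml3, Frem2 was at 2.06 and 2.13, and beside Slc24a4, Cpsf2 was at 6.93 and 10.7. These and the other compared neighbours, 8 in all beside Cenpo and Ntf3, were within the 2-fold bounds on value + 1. Of all compared rows, 12.0% were called lower and 16.5% higher.

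Genes that mark neurons in general and other cells were measured to set the 9 genes in context. Over all compared rows, 12.0% were called lower and 16.5% higher. Of 14 compared general neuron genes, 1 was called lower, 3 higher and 10 neither (median log2 ratio −0.14). Their summed value was 713 in mOSN against 588 in O/Tet3. The synaptic gene Snap25 was at 113 and 116, close in both, while Nsg1, which encodes an endosomal protein, was at 177 and 33.6. The higher genes were Uchl1 at 67.8 and 144, Elavl4 at 15.9 and 33.03, and Nefl at 0.0455 and 1.20. Of 9 compared immature neuron genes, 4 were higher and 2 lower (median 0.97), with the sum at 105 and 144. Gap43, an axon growth gene, was at 6.41 and 34.8, Stmn1 at 6.72 and 34.7 and Sox11 at 0.383 and 6.05, while Dpysl5 was at 7.98 and 1.46 and Lhx2 at 35.9 and 9.27. The progenitor genes Neurog1 and Neurod1 were near 0 in both libraries, at 0.0524 or less. The part of the higher immature neuron genes in the differences of the 9 genes was not tested.

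Markers of other cells of the epithelium were summed in the same way. Sustentacular genes summed to 40.7 in mOSN against 19.7 in O/Tet3, with 1 of 7 compared genes lower, Ugt2a1 at 15.6 and 2.53. Basal cell genes summed to 0.948 and 1.73, most of it Kit at 0.741 and 1.73, the 1 compared gene, while Krt5, Krt14 and Trp63 did not exceed 0.116 in mOSN and were 0 in the O/Tet3 column. Gland and microvillous genes summed to 5.07 and 3.75, and of the 3 compared, 2 were lower, among them Ascl3 at 1.58 and 0, and 1 was higher, Pou2f3 at 0.582 and 2.90. Glial genes summed to 7.61 and 2.11, with 1 of 3 compared genes lower, Fabp7 at 4.78 and 0.0607. S100b and Sox10, 0 in the O/Tet3 column, did not exceed 0.645 in mOSN. Blood and vessel genes summed to 63.4 and 41.8, most of it haemoglobin, with Cdh5 listed at 0 in both. Genes of guanylyl cyclase D and other atypical olfactory neurons summed to 13.3 and 15.05. Each of these sums was below the value of Omp alone in the same library, but of the 9 genes only Stoml3 stood above Omp. Against other genes of the 9 this did not always hold. The blood and vessel sum was below Cnga2 in mOSN, at 63.4 against 238, but above it in O/Tet3, at 41.8 against 37.9. The sustentacular sum was above Slc24a4 in both, at 40.7 against 39.3 and 19.7 against 4.87. The part of these markers in the differences of the 9 genes was not tested.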

How the data were processed

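The samples were mapped to groups from their labels: 1 RNA library for mOSN and 1 for O/Tet3, depleted with RiboMinus and built with ScriptSeq per the labels' protocols. Per the submitters' processing notes, Bowtie, Bowtie2, Cuffdiff and build mm9 are named; versions, roles, annotation and strand setting are not given in the sources used here. The authors deposited a log2 value per gene row and library, and the difference of the columns. The lowest deposited log2 value is 0, and 99.4% of mOSN and 99.3% of O/Tet3 values above 0.01, once back-transformed as 2 to the power of the entry minus 1, need no more than 6 significant digits (relative tolerance 1e-09), so entries were read as log2(value + 1). Values, ratios, ranks and list counts were computed with Python 3.11.15, numpy 2.4.6 and pandas 2.3.3. The calling code was run on simulated counts that held only read sampling, a depth difference and planted changes. They had no variation between animals, strains or library preparations, so they give no error rate for calls between these libraries. No test between groups was possible with 1 library per group. Promoter windows came from RefSeq; GRCm38 was used only for these and for gene order, not for coordinates of the mm9 rows. The genes and lists were chosen with earlier results of these data known. Named outside the 9 genes are the 4 members of a list with the largest ratio in size and the 1 nearest 0, paralogs with a value of at least 1, nearest rows and neighbours; other pathway genes, calmodulins, pumps and genes listed at or near 0 were named after their values were seen. The promoter search, and the bounds of the lowest receptor clusters (0.02 to 0.035 in mOSN, 0.035 to 0.06 in O/Tet3), were set after the data were seen. Alternatives changed the pseudocount, the scaling, the floor and the fold. Some genes that these lists and rules select are counted but not reported by name here.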

Additional observations from a re-analysis of the deposited data

How the results depend on the processing

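The 5 settings that changed the pseudocount or the scaling left 8 of the 9 genes lower, as did dropping the floor, while at 3-fold 7 were lower, since Omp no longer passed. Each of the 5 settings made the ratios of the 8 lower genes more negative, and all 9 genes passed the floor in both libraries. The count could therefore not fall under these settings or without the floor, and its staying the same is no check. The median log2 ratio of the 9 genes was −2.30 with a pseudocount of 0.1 or with none, −2.44 centred on the median of rows expressed in both libraries, −2.47 scaled to equal sums over rows under 1000, and −2.46 scaled to equal upper quartiles. The log2 ratio of Omp ranged from −1.35 to −1.09 over these settings, and that of Slc12a2 from −0.05 to 0.20, below 0 under each of the 3 scalings. At 3-fold, 745 rows were higher and 673 lower, and with a floor of 5 these were 1401 and 793, fewer by construction; without receptors, small RNAs and rows listed at 0 in 1 library, 1905 were higher and 888 lower. Centring and no floor gave list medians of −1.72 and −1.19 for the rest of the pathway, 0.60 and 0 for anoctamins, −0.64 and −0.32 for Slc12 relatives, −0.92 and −0.37 for stomatins, and −0.53 and 0.18 for ion gradients. They gave −0.35 and 0 for general neuron genes, 0.76 and 0.48 for immature neuron genes, −0.91 and −0.39 for sustentacular, −1.22 and −0.23 for gland and microvillous, −0.88 and −0.055 for blood and vessel, and −0.18 and 0.11 for atypical neuron genes. For glia the centred median was −0.46. Centring subtracts 0.21 from every ratio, and no floor adds genes near 0 in both libraries, whose ratios are near 0. No replicate could be left out. No paired analysis was possible because there is a single library on each side. Read depth is unknown, so no counting error can be given.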
